A study of Mus musculus with 2 samples.

Results

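The genes that make and sense prostaglandins and leukotrienes were followed through the cells of mouse kidney tumours. The set held 10 genes, picked by symbol from the 55357 gene rows of the deposited count table, and no measured value entered the rule. They were the cyclooxygenases Ptgs1 and Ptgs2, the terminal prostaglandin synthases Ptges and Hpgds, the lipoxygenase Alox5 with its partner Alox5ap, the leukotriene enzymes Ltc4s and Lta4h, and the receptors Ltb4r1 and Ptger4. All 10 had a row in the table, with between 250 UMIs (unique molecular identifiers, each standing for 1 captured RNA molecule) for Ptges and 120490 for Alox5ap.

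The tumours came from RENCA, an epithelial cell line of a mouse kidney carcinoma, placed in the kidney of BALB/c mice. Droplet-based single-cell RNA sequencing (10x Genomics) gave 1 library from tumours whose RENCA cells carried a SMYD3 knockdown and 1 library from tumours of control cells, labelled WT. SMYD3 is a lysine methyltransferase, and the knockdown concerns the grafted cells, while the immune cells of both libraries belong to hosts for which the labels state no alteration. The study's question was how the tumour's SMYD3 relates to the immune cells around it. Neither the labels nor the design text give the knockdown reagent, the mice's age and number, or whether tumours were pooled. Each label is thus known as 1 library from an unstated number of animals. The design text states a sort for CD45-positive immune cells, whereas the label for cell type is epithelial.

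Prostaglandins and leukotrienes are short-range lipid signals made from arachidonic acid. Cyclooxygenase 1 (Ptgs1, usually constitutive) and cyclooxygenase 2 (Ptgs2, inducible) form prostaglandin H2, from which Ptges makes prostaglandin E2 and Hpgds makes prostaglandin D2. The other branch starts with 5-lipoxygenase (Alox5), which needs the membrane protein FLAP (Alox5ap), and ends in leukotriene B4 through Lta4h, a neutrophil attractant read by the receptor BLT1 (Ltb4r1), or in leukotriene C4 through Ltc4s. Ptger4 encodes EP4, a prostaglandin E2 receptor that raises cyclic AMP.

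Each label had 1 library, so no difference between the labels has a replicate check and no p-value is given. Values below are CPM (the standard scaling of a gene's UMIs to the total UMIs of the summed cells of a class), with the library labelled SMYD3 knockdown first and the library labelled WT second. Ranges in parentheses after a ratio are exact 95% intervals that cover counting error only. A gene was counted as measured in a class when the higher library held at least 30 UMIs, and as past the fold when the libraries were at least 1.5-fold apart.

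The libraries held 10186 and 9265 barcodes with 95803321 and 91523767 UMIs, and shared 22 barcode sequences. After filters, 16863 of 19451 barcodes were kept. By marker genes, 6124 and 6154 cells were mononuclear phagocyte-like (macrophages and monocytes, 69.7% and 76.2% of the kept cells), 1946 and 1127 neutrophil-like (22.2% and 13.9%), 166 and 206 dendritic cell-like and 85 and 116 T cell-like. The keratin-positive class, which a CD45 sort should remove, held 54 and 93 cells. Its Smyd3 level was 20.2 CPM and 16.9 CPM on 29 and 40 UMIs and so was not lower under the knockdown label. For that reason each library is called by its label. RNA of pancreatic acinar cells was present in the library labelled SMYD3 knockdown and nearly absent from the other: the 10 acinar markers summed to 369 and 0.0551 CPM in mononuclear phagocytes and to 2501 and 0.655 CPM in neutrophils. Its part in the differences below was not tested. Leaving those UMIs out of the totals gave the same calls. At these levels that step can hardly move a ratio, so it decides nothing about this RNA.

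Some RNA of macrophages was also counted in other cells. In neutrophils, 7 macrophage markers (Adgre1, Apoe, C1qa, C1qb, C1qc, Csf1r and Lyz2) stood at 12.1% to 17.0% of their mononuclear phagocyte level in the library labelled SMYD3 knockdown and at 9.59% to 20.8% in the library labelled WT. In dendritic cells the same markers stood at 2.06% to 5.59% and at 2.80% to 6.31%. Whether these counts, those of Lyz2 included, were macrophage RNA or the cells' own was not tested. A member at or below these shares is read here as not told apart from background.

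Among the members with at least 1000 UMIs, 3 ranged more than 16-fold over the macrophage states in both libraries: Ptgs2, Hpgds and Ltb4r1. Their promoter sequences are shown as reference for these 3 genes. RefSeq (GRCm38.p6) had a promoter entry for 9 of the 10 members. Each run below goes from 250 bases before the RefSeq start to 30 bases after it, in the direction of the gene, with matches to 7 searched motifs in capitals.
Ptgs2, chr1:150099781-150100060, plus strand: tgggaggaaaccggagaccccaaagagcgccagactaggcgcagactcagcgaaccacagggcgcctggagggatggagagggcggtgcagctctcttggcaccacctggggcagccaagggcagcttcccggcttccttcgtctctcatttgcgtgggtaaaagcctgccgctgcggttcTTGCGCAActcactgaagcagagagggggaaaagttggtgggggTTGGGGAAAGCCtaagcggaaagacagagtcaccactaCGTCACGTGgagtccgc
Hpgds, chr6:65144701-65144980, minus strand: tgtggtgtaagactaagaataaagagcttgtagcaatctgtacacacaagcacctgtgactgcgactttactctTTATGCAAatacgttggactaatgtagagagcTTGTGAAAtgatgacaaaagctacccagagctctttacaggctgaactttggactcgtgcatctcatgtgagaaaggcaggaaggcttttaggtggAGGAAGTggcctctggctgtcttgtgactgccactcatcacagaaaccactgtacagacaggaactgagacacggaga
Ltb4r1, chr14:55765712-55765991, plus strand: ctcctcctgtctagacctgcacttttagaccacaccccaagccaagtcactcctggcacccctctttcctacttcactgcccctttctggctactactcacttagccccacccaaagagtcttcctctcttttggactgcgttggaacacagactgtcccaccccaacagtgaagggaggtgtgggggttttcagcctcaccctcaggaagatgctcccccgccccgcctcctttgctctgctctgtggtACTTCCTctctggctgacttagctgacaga

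The motifs were searched on both strands as C/EBP TTNNGNAA, the cyclic AMP response core CGTCA, E-box CACGTG, NF-kB GGG and CC with any 5 bases between them, PU.1 AGGAAGT, MAF TGCTGA and AP-1 TGANTCA. The Ptgs2 window held 2 C/EBP matches, 69 and 25 bases before the start, of which the second overlaps an NF-kB match 23 bases before the start. It also held a cyclic AMP response core and an overlapping E-box 14 and 17 bases after the start. In the Hpgds window there were 2 C/EBP matches, 176 and 144 bases before the start, and a PU.1 match 48 bases before it. Ltb4r1 had 1 match, a PU.1 sequence on the opposite strand at the start itself. Such matches are common: of 32851 mouse promoter windows of the same length, 39.3% held the C/EBP letters, 48.9% the NF-kB letters, 19.9% the cyclic AMP response core, 6.79% the E-box and 8.65% the PU.1 letters. A match is a description of the letters and not a binding site.

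Ptgs2 (chr1:150100031-150108227, plus strand, GENCODE vM21) was highest in neutrophils in both libraries. It reached 494 CPM (469 to 521) and 591 CPM (553 to 631) there, against 66.7 CPM (64.9 to 68.6) and 79.0 CPM (77.0 to 81.1) in mononuclear phagocytes. The neutrophil level was therefore 7.41-fold (6.98 to 7.87) and 7.48-fold (6.97 to 8.03) the mononuclear phagocyte level, the largest excess of neutrophils over mononuclear phagocytes among the 10 genes. A Ptgs2 UMI was found in 29.9% and 33.0% of neutrophils, whose median depth was 1368.5 and 1291 UMIs. In T cells, at a median depth of 3032 and 2707.5 UMIs, it was found in 1 of 85 and 0 of 116 cells (1.18% and 0%, where 0 allows up to 2.59% of cells with a UMI and sets no limit on cells that express the gene). With every cell thinned to 1000 UMIs, which left out 343 and 235 neutrophils and 217 and 226 mononuclear phagocytes, the shares were 26.1% and 29.0% of neutrophils and 5.91% and 6.29% of mononuclear phagocytes. Dendritic cells held 16.7 and 9.84 CPM on 31 and 23 UMIs, and keratin-positive cells 1.39 and 1.27 CPM on 2 and 3 UMIs.

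**Figure D1:**
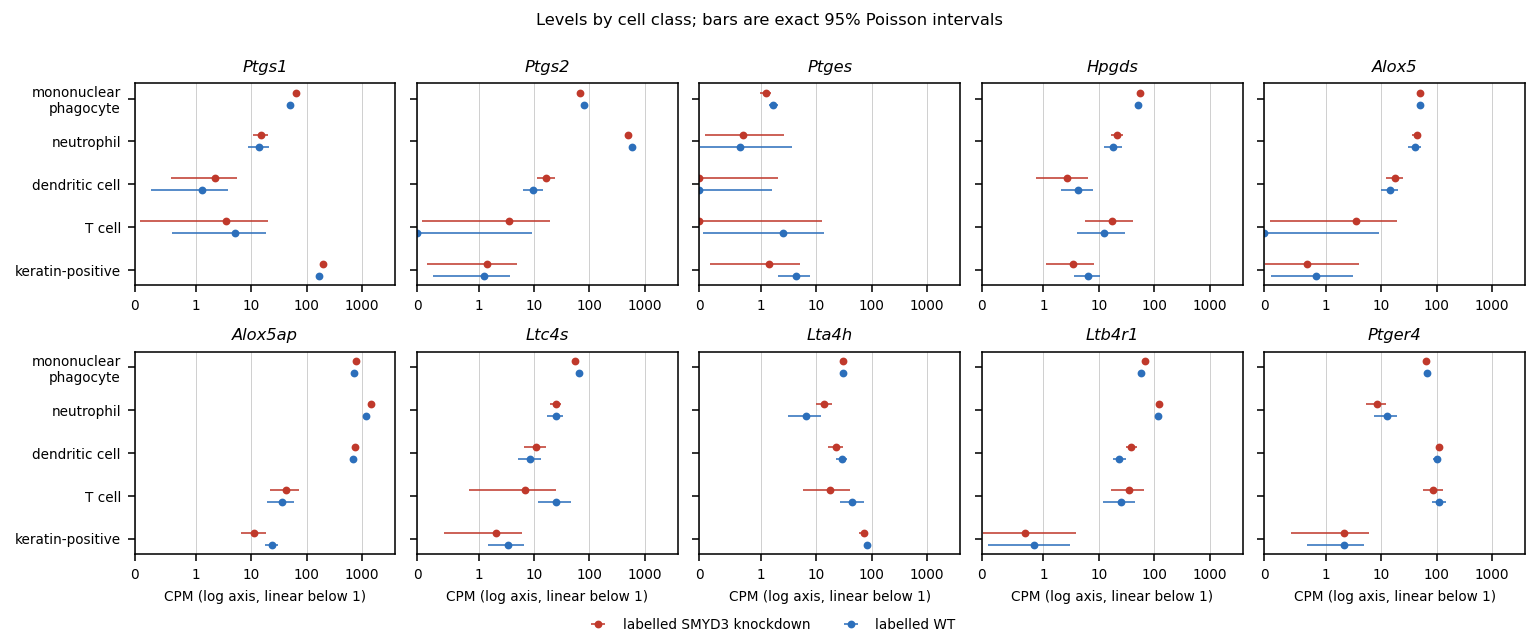
Level of each of the 10 genes (CPM, log axis that is linear below 1) in 5 cell classes, with the library labelled SMYD3 knockdown in red and the library labelled WT in blue; points are summed cells and bars are exact 95% Poisson intervals. Ptgs2 and Alox5ap were highest in neutrophils, and Ptgs1 and Lta4h in keratin-positive cells.

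Among mononuclear phagocytes, Ptgs2 was spread over 10 marker-defined states by 16.8-fold and 18.4-fold. The Nos2 Inhba state, inflammatory cells with the inducible nitric oxide synthase, was at the top with 269 and 296 CPM. The Arg1 Spp1 state, macrophages rich in arginase and osteopontin, followed with 109 and 199 CPM. The Car4 Vcan, Ly6c2 Plac8 and interferon-response states lay between 78.6 and 115 CPM. Tissue-type macrophages were at the other end, with 26.4 and 23.5 CPM in the Cx3cr1 Vcam1 state and 15.9 and 16.1 CPM in the Lyve1 Cd163 state. The top and bottom states were the same in both libraries, and the top state did not overlap the second in either.

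The neutrophil states differed less in Ptgs2, by 1.61-fold (1.35 to 1.93) and 2.10-fold (1.65 to 2.69). The Cd274 Hcar2 Gadd45b state, which carries the checkpoint ligand gene Cd274, was highest with 666 and 783 CPM. Under the WT label the interferon-response state, at 708 CPM, overlapped it. The lowest state was not the same in both libraries: Mmp9 Cd177 Il1r2 neutrophils with 413 CPM under the knockdown label, and Retnlg-high neutrophils with 373 CPM under the WT label. No neutrophil state was below the highest macrophage state in either library.

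Between the libraries, Ptgs2 was lower under the knockdown label by a similar ratio in both large classes: 0.836 (0.769 to 0.911) in neutrophils and 0.845 (0.813 to 0.877) in mononuclear phagocytes. Neither passed the fold. The state values did not all share this size. The ratio was 0.548 (0.482 to 0.622) in the Arg1 Spp1 state, 0.659 (0.554 to 0.781) in the Mmp12 Gpnmb state and 0.606 (0.466 to 0.790) in interferon-response neutrophils, the states past the fold. In the MHC class II-high state it was 1.01 (0.885 to 1.14), and in Retnlg-high neutrophils 1.34 (1.05 to 1.72), the opposite direction. Ptgs2 is also an immediate-early gene that cell handling can induce. A list of 18 dissociation and heat stress genes had a median log2 ratio of -0.24 in mononuclear phagocytes, with 1 of 18 above 1, and of 0.18 in neutrophils, with 14 of 18 above 1, beside -0.03 and -0.05 for all genes. Its part in the Ptgs2 values was not tested.

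Ptgs1 (chr2:36230426-36252272, plus strand) had another distribution. Its highest class was the keratin-positive cells, with 193 and 170 CPM and a UMI in 81.5% and 77.4% of them, against 62.6 CPM (60.8 to 64.4) and 49.3 CPM (47.7 to 51.0) in mononuclear phagocytes. Keratin-positive cells were the deepest class, with a median of 20775 and 26426 UMIs against 11556 and 11152, so the shares of cells are not comparable, while the CPM was 3.08-fold and 3.44-fold that of mononuclear phagocytes. Dendritic cells had 2.16 and 1.28 CPM, or 3.45% and 2.60% of the mononuclear phagocyte level. These values are within or below the shares of the macrophage markers there. Neutrophils had 15.0 and 13.8 CPM, or 24.0% (17.3% to 32.5%) and 27.9% (17.3% to 42.7%), where the WT interval reaches into the range of the 7 macrophage markers.

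Within mononuclear phagocytes Ptgs1 was highest in the Cx3cr1 Vcam1 state, at 143 and 123 CPM with a UMI in 66.5% and 53.7% of cells, and no other state overlapped it in either library. The lowest was the Mmp12 Gpnmb state, at 20.4 and 20.7 CPM, a range of 7.001-fold (5.65 to 8.76) and 5.92-fold (4.85 to 7.27). The Lyve1 Cd163 state, the other tissue-type state, was also low at 31.9 and 30.9 CPM. The cyclooxygenases were thus high in different states: Ptgs1 in Cx3cr1 Vcam1 macrophages, Ptgs2 in Nos2 Inhba cells. In single mononuclear phagocytes thinned to 1000 UMIs, Ptgs1 was found in 3.15% (1.58% to 5.57%) and 2.14% (0.930% to 4.18%) of cells with a Ptgs2 UMI, and in 6.03% (5.42% to 6.69%) and 4.48% (3.95% to 5.06%) of cells without one. The intervals of the cells with and without Ptgs2 overlapped in both libraries.

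Ptgs1 was higher under the knockdown label in mononuclear phagocytes, by 1.27-fold (1.22 to 1.33), the largest ratio above 1 among the members there. It was 1.13-fold (0.970 to 1.33) in keratin-positive cells, whose interval holds 1. In the Arg1 Spp1 state it was 86.7 and 46.8 CPM, a ratio of 1.85 (1.52 to 2.27).

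Ptges (chr2:30889471-30929863, minus strand, overlapped on the same strand by Gm13400), the inducible prostaglandin E2 synthase that acts after Ptgs2, was scarce. Mononuclear phagocytes held 92 and 121 UMIs, or 1.22 and 1.67 CPM, with a UMI in 1.40% and 1.51% of cells. The Nos2 Inhba state was again highest, at 4.85 and 7.71 CPM on 17 and 32 UMIs, but it overlapped the next state in both libraries. The Arg1 Spp1, interferon-response and Mmp12 Gpnmb states had between 2.36 and 4.25 CPM, and the remaining states had fewer. Neutrophils, where Ptgs2 was highest, held 2 and 1 Ptges UMIs. Dendritic cells held none in either library, which allows up to 1.62 and 1.28 CPM.
Cells other than leukocytes were few: fibroblast-like cells (3 and 13 cells) held 6 and 7 Ptges UMIs, or 135 and 30.9 CPM. The ratio between libraries in mononuclear phagocytes was 0.734 (0.554 to 0.971). In the Nos2 Inhba state it was 0.629 (0.328 to 1.17), past the fold with an interval that holds 1.

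Hpgds (chr6:65117293-65144908, minus strand, overlapped on the other strand by Gm17147), the prostaglandin D2 synthase of blood-derived cells, had the widest range over macrophage states among the members found in every state. It stood at 119 and 109 CPM in the Lyve1 Cd163 state and at 118 and 122 CPM in the Cx3cr1 Vcam1 state, with overlapping intervals in each library. Interferon-response cells had 87.6 and 64.1 CPM, cycling cells 53.2 and 45.8 CPM and the Mmp12 Gpnmb state 40.9 and 34.2 CPM. The monocyte-type states were low, with 13.3 and 8.53 CPM in the MHC class II-high state, 6.52 and 4.68 CPM in the Ly6c2 Plac8 state and 2.53 and 2.65 CPM in the Car4 Vcan state. From the highest state to the lowest this was 47.1-fold (27.4 to 88.8) and 46.0-fold (24.9 to 96.4). Mast cells are a well-known source of Hpgds. In mononuclear phagocytes 6 and 7 of 8 mast cell and basophil markers were at 0, and the list summed to 0.0399 and 0.0276 CPM. Cells scoring highest for that list were gated out of this class, so the low sum is partly set by the gate. The source of the Hpgds UMIs was not tested.

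Dendritic cells had 2.70 and 4.28 CPM of Hpgds and neutrophils 21.5 and 18.3 CPM, the latter 38.8% (29.6% to 50.1%) and 35.5% (23.6% to 51.4%) of the mononuclear phagocyte level. The dendritic cell level lies within the shares of the macrophage markers there under the knockdown label, and above them under the WT label. Over all mononuclear phagocytes the libraries differed by 1.07-fold (1.02 to 1.12). In the Arg1 Spp1 state Hpgds was 34.5 and 13.4 CPM, 2.57-fold apart (1.80 to 3.75) on 128 and 41 UMIs, the largest ratio above 1 of any measured member in a macrophage state. In the MHC class II-high state the ratio was 1.56 (1.14 to 2.13).

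Alox5 (chr6:116410077-116461178, minus strand) was nearly equal in both libraries and both large classes. Mononuclear phagocytes had 49.4 and 49.1 CPM, a ratio of 1.00 (0.959 to 1.05), and neutrophils 44.0 and 40.0 CPM, which is 89.2% (73.9% to 107%) and 81.3% (62.1% to 105%) of that level. The Lyve1 Cd163 state was highest at 76.2 and 78.5 CPM, and the Ly6c2 Plac8 state lowest at 18.6 and 16.8 CPM, a range of 4.09-fold (3.14 to 5.42) and 4.66-fold (3.34 to 6.70). Mmp9 Cd177 Il1r2 neutrophils had 78.7 and 68.1 CPM and Cd274 Hcar2 Gadd45b neutrophils 22.9 and 25.2 CPM, whereas Ptgs2 stood higher in the second of these states in both libraries. Dendritic cells had 17.8 and 14.6 CPM and keratin-positive cells 1 and 2 UMIs.

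Alox5ap (chr5:149264767-149288153, plus strand, overlapped on the other strand by n-R5s180 and Gm19719) marked myeloid cells as a whole. It reached 1432 and 1185 CPM in neutrophils, 763 and 712 CPM in mononuclear phagocytes and 745 and 672 CPM in dendritic cells. T cells had 42.0 and 35.0 CPM, 5.51% and 4.92% of the mononuclear phagocyte level, within the share of macrophage markers found in them. Alox5ap was flatter than Alox5 over the macrophage states, from 559 and 488 CPM in the Cx3cr1 Vcam1 state to 1009 and 980 CPM in the Ly6c2 Plac8 state, which is 1.81-fold (1.72 to 1.89) and 2.01-fold (1.90 to 2.12). The Ly6c2 Plac8 state was thus highest for Alox5ap and lowest for Alox5, its partner. For Alox5ap the Car4 Vcan state overlapped it under the knockdown label. Over all classes and states together the levels of the partners still rose together, as given with the nearest genes below. In neutrophils the Retnlg-high state was highest at 1987 and 1644 CPM and the Cd274 Hcar2 Gadd45b state lowest at 1024 and 761 CPM.

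Under the knockdown label Alox5ap was higher in neutrophils by 1.21-fold (1.14 to 1.28), in mononuclear phagocytes by 1.07-fold (1.06 to 1.08) and in dendritic cells by 1.11-fold (1.03 to 1.19). All 4 neutrophil states had a ratio above 1. In keratin-positive cells it was 11.2 and 23.2 CPM on 16 and 55 UMIs, a ratio of 0.481 (0.257 to 0.851). In the same cells the macrophage marker list summed to 688 and 939 CPM, and its part in that ratio was not tested.

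**Figure D2:**
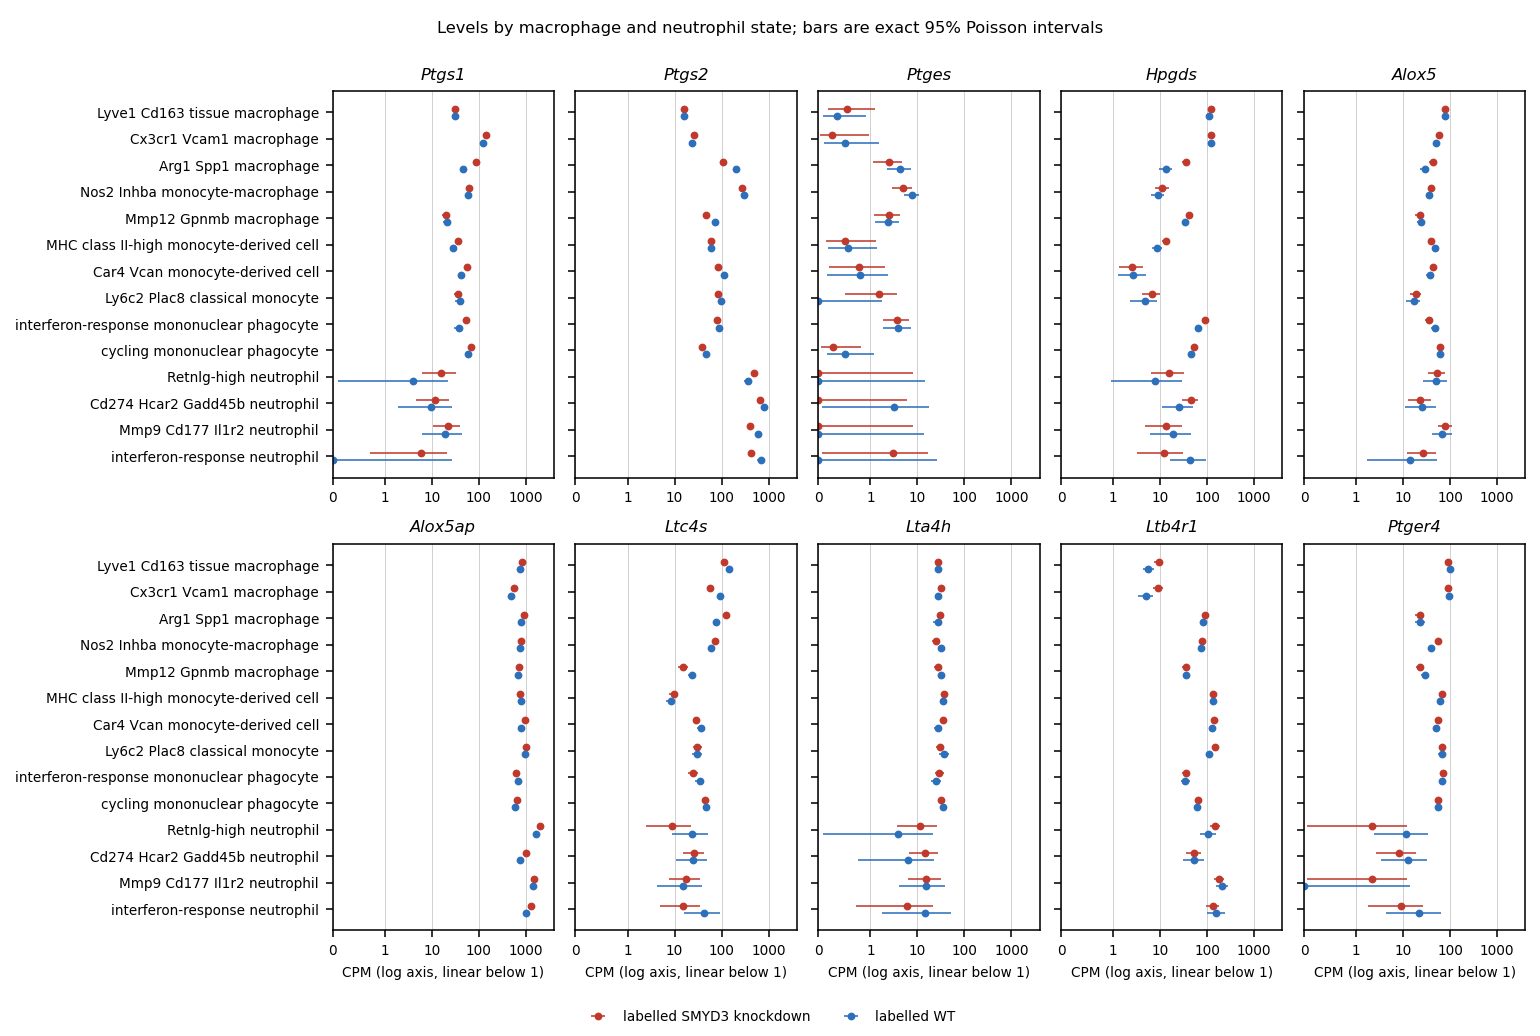
Level of each of the 10 genes (CPM, log axis that is linear below 1) in 10 macrophage and 4 neutrophil states, red for the library labelled SMYD3 knockdown and blue for the library labelled WT, with exact 95% Poisson intervals. Hpgds and Ltb4r1 span the macrophage states in opposite directions. Over the same states Lta4h spans 1.498-fold and 1.46-fold, and Alox5ap 1.81-fold and 2.01-fold.

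Ltc4s (chr11:50236461-50238616, minus strand, overlapped on the other strand by Gm26542) makes leukotriene C4, the first of the cysteinyl leukotrienes. It was found mainly in mononuclear phagocytes, at 55.9 CPM (54.2 to 57.6) and 66.6 CPM (64.8 to 68.5). Its neutrophil level of 24.7 and 24.9 CPM was 44.2% (34.3% to 56.1%) and 37.4% (26.4% to 51.4%) of that, and dendritic cells had 10.8 and 8.56 CPM. The Lyve1 Cd163 state had 110 and 141 CPM and the MHC class II-high state, the lowest, 9.53 and 8.30 CPM. The state at the top was not the same in both libraries: Arg1 Spp1 macrophages led with 122 CPM under the knockdown label, overlapping the Lyve1 Cd163 state, and had 75.5 CPM under the WT label.

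Ltc4s was also the member past the fold in both directions among the macrophage states. It was 1.62 (1.38 to 1.90) in the Arg1 Spp1 state and 1.24 (1.04 to 1.49) in the Nos2 Inhba state. It was 0.614 (0.540 to 0.699) in the Cx3cr1 Vcam1 state, where the levels were 56.6 and 92.1 CPM, 0.647 (0.475 to 0.874) in the Mmp12 Gpnmb state and 0.781 (0.721 to 0.846) in the Lyve1 Cd163 state. The class as a whole had a ratio of 0.838 (0.804 to 0.874), and with each state weighing the same it was 0.945.

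Lta4h (chr10:93453411-93484875, plus strand), the hydrolase that makes leukotriene B4, was the most even member. The macrophage states ran from 25.1 to 37.6 CPM under the knockdown label and from 25.4 to 37.0 CPM under the WT label, 1.498-fold (1.18 to 1.92) and 1.46-fold (1.04 to 2.05). The class values of 30.9 and 30.6 CPM gave a ratio of 1.01 (0.951 to 1.07). Keratin-positive cells were highest at 71.1 and 83.6 CPM, dendritic cells had 22.7 and 28.7 CPM, and neutrophils, which respond to its product, were lowest of these at 13.96 and 6.55 CPM. The neutrophil ratio of 2.13 (1.04 to 4.79) rested on 39 and 10 UMIs. Under the WT label the neutrophil level was near the upper end of the macrophage marker shares there. The ratio was 1.34 with a stricter neutrophil gate and 1.19 with each state weighing the same, under the fold in both.

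Ltb4r1 (chr14:55765962-55768494, plus strand), the high-affinity leukotriene B4 receptor, was highest in neutrophils, at 124.6 and 119 CPM against 67.6 and 59.0 CPM in mononuclear phagocytes. That is 1.84-fold (1.65 to 2.06) and 2.01-fold (1.72 to 2.33). The difference between macrophage states was larger than between the classes. The Ly6c2 Plac8, Car4 Vcan and MHC class II-high states, all of monocyte type, had between 108 and 147 CPM. The Lyve1 Cd163 state had 9.17 and 5.61 CPM and the Cx3cr1 Vcam1 state 8.85 and 4.95 CPM, so that the range was 16.7-fold (12.9 to 21.9) and 26.6-fold (18.4 to 39.9). The Car4 Vcan state overlapped the highest state in both libraries, the Ly6c2 Plac8 state under the knockdown label and the MHC class II-high state under the WT label.

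Neutrophil states also differed in Ltb4r1: 179 and 208 CPM in the Mmp9 Cd177 Il1r2 state and 52.3 and 53.5 CPM in the Cd274 Hcar2 Gadd45b state, 3.42-fold (2.25 to 5.33) and 3.89-fold (2.23 to 7.15). The Cd274 Hcar2 Gadd45b state, highest for Ptgs2 with an overlap under the WT label, was thus lowest for Ltb4r1 and Alox5ap in both libraries. Between the libraries Ltb4r1 was 1.15-fold (1.10 to 1.19) higher under the knockdown label in mononuclear phagocytes and 1.05-fold (0.875 to 1.26) in neutrophils. It was past the fold in the states where it was lowest, at 1.79 (1.14 to 2.87) in the Cx3cr1 Vcam1 state and 1.64 (1.17 to 2.30) in the Lyve1 Cd163 state, and in dendritic cells, at 38.8 and 23.5 CPM (1.65, 1.15 to 2.39).

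Ptger4 (chr15:5206661-5244187, minus strand, overlapped on the other strand by Ttc33 and Gm15937) had its highest levels in dendritic cells, with 113 and 100 CPM, and in T cells, with 87.6 and 113 CPM. Mononuclear phagocytes had 63.6 and 66.3 CPM, a ratio of 0.960 (0.922 to 0.999). Neutrophils had 8.24 and 12.5 CPM, which is 12.95% and 18.8% of the mononuclear phagocyte level and lies within the shares of macrophage markers counted there. The tissue-type states were highest, with 91.7 and 94.99 CPM in the Cx3cr1 Vcam1 state and 89.6 and 100 CPM in the Lyve1 Cd163 state, with overlapping intervals in each library. The Arg1 Spp1 state was lowest with 22.9 CPM in each library, 4.01-fold (3.20 to 5.08) and 4.38-fold (3.44 to 5.66) below the top. Ptger4 and the inducible cyclooxygenase thus stood high in different cells. Ptger4 did so in dendritic cells, T cells and tissue-type macrophages, and Ptgs2 in neutrophils and Nos2 Inhba cells.

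**Figure D3:**
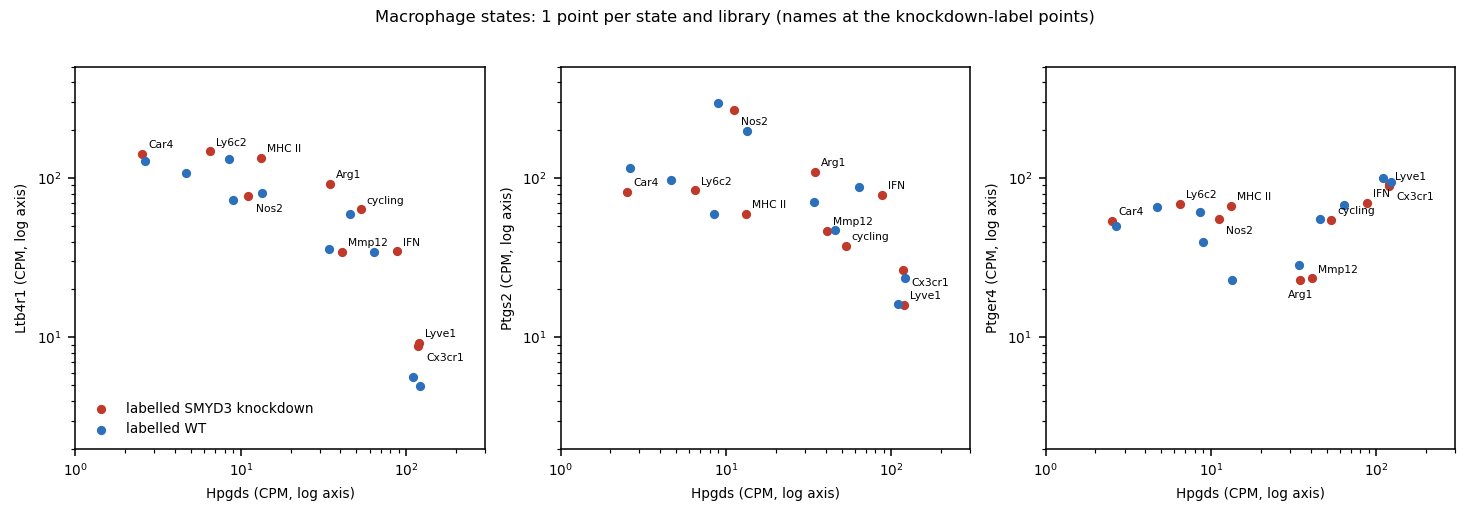
Each point is 1 of 10 macrophage states in 1 library (red labelled SMYD3 knockdown, blue labelled WT), plotting Ltb4r1, Ptgs2 or Ptger4 against Hpgds in CPM on log axes. The Lyve1 Cd163 and Cx3cr1 Vcam1 states sit at the high Hpgds end with Ltb4r1 below 10 CPM, and the Car4 Vcan state at the other end with Ltb4r1 at 142 and 128 CPM.

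The members therefore split the macrophage states. Tissue-type states (Lyve1 Cd163 and Cx3cr1 Vcam1) were high in Hpgds and Ptger4 and low in Ltb4r1 and Ptgs2, and the monocyte-type states were high in Ltb4r1 and low in Hpgds. The same cells were also read singly with all states pooled, so these shares partly restate the state levels and are not separate support. Among mononuclear phagocytes thinned to 1000 UMIs, Hpgds was found in 2 of 399 and 1 of 333 cells with a Ltb4r1 UMI. These shares are 0.501% (0.0608% to 1.80%) and 0.3003% (0.00760% to 1.66%). Without a Ltb4r1 UMI the shares were 5.25% (4.67% to 5.87%) and 5.52% (4.94% to 6.15%). Hpgds was found in 8.33% (5.52% to 12.0%) and 7.99% (5.33% to 11.4%) of cells with a Ltc4s UMI and in 4.74% (4.19% to 5.33%) and 5.06% (4.50% to 5.67%) of cells without. For the partners Alox5 and Alox5ap the shares with and without the other were 4.91% and 4.68% against 4.77% and 4.01%, with intervals that overlapped in both libraries. These gene pairs were chosen after their levels were seen, and cells of 1 library are not replicates.

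Between the libraries, no member was past the fold in mononuclear phagocytes (0 of 10 measured), where 6.96% of all 14345 measured genes were. The members' median log2 ratio was 0.01, against -0.03 for all genes, with 6 of 10 above 1. In neutrophils 1 of 8 was past the fold (Lta4h, on the low counts above), beside 10.8% of all measured genes. In dendritic cells it was 2 of 6 (Ptgs2 and Ltb4r1), beside 8.29%, and the Ptgs2 interval there of 0.959 to 3.05 holds 1. The Ptgs2 ratio was on the other side of 1 when cells were classed by Leiden clusters (0.863, on 11 and 17 UMIs), and the Ltb4r1 ratio was then 1.40. In keratin-positive cells 1 of 3 (Alox5ap) was past the fold beside 11.1%, and in T cells 0 of 1 beside 16.2%.

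**Figure D4:**
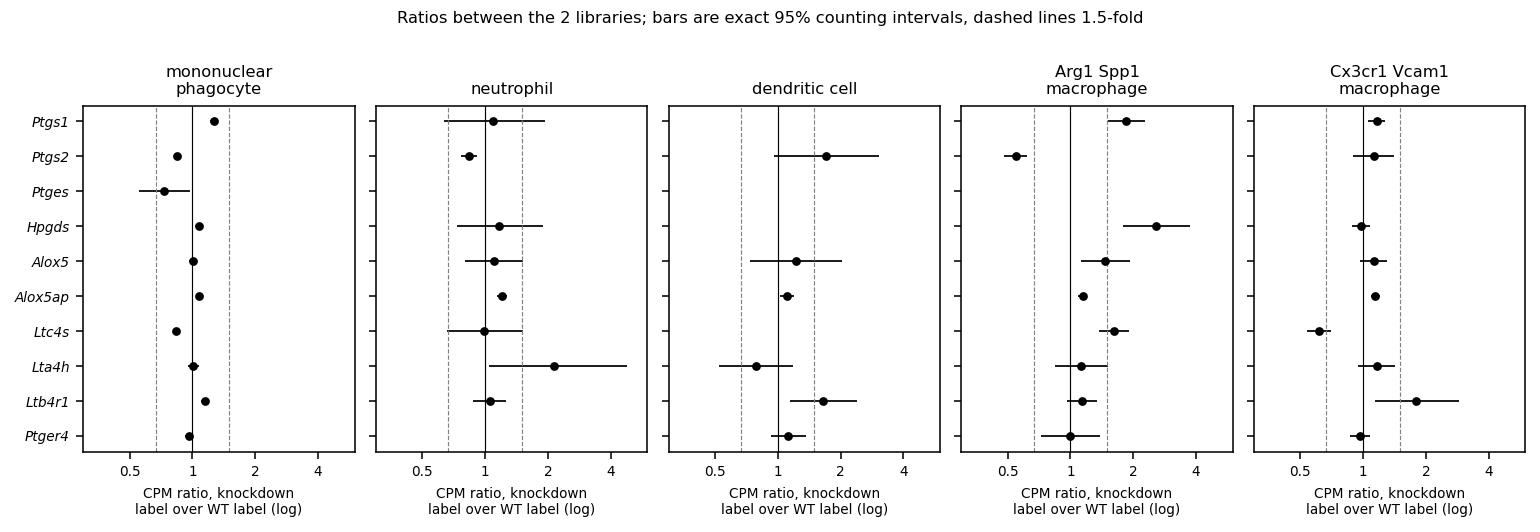
CPM ratio of the library labelled SMYD3 knockdown over the library labelled WT (log axis) for each measured gene in 3 cell classes and 2 macrophage states; bars are exact 95% counting intervals and dashed lines mark 1.5-fold. No gene passes the lines in mononuclear phagocytes, while 4 do in Arg1 Spp1 macrophages and 2 in Cx3cr1 Vcam1 macrophages.

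The Arg1 Spp1 state held the most member differences. Of 9 measured members 4 were past the fold, Ptgs1, Hpgds and Ltc4s higher and Ptgs2 lower under the knockdown label, beside 10.6% of all genes measured in that state. Each of these calls ended under at least 1 other setting: Ptgs1 was 1.36 with each cell weighing the same, Ptgs2 0.696 with thinned cells, and Ltc4s 1.26 and Hpgds 1.34 with Leiden clusters. With every cell thinned Hpgds was 0.732, on 3 and 4 UMIs. The state held 319 and 306 cells, but 805 and 899 when named from Leiden clusters, so the Leiden values cover a larger group. States are cut from per-cell scores: 2126 of 9342 macrophages with a state lay near a cut. Other marker lists moved with it. The state's own list summed to 20310 and 19976 CPM, the Cx3cr1 Vcam1 list to 11519 and 9369 CPM with 6 of 7 genes higher, and the Lyve1 Cd163 list to 2329 and 2070 CPM with 7 of 8 higher. The Mmp12 Gpnmb and MHC class II-high lists were lower, at 1532 and 2219 CPM and at 1167 and 1622 CPM, and their part in the member ratios was not tested.

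In the Cx3cr1 Vcam1 state 2 of 9 members were past the fold, Ltc4s lower and Ltb4r1 higher, beside 6.4% of all genes. Its own list summed to 42029 and 44832 CPM, the Lyve1 Cd163 list to 4676 and 5557 CPM and the Arg1 Spp1 list to 3056 and 2003 CPM. The Car4 Vcan list, which marks a state high in Ltb4r1, summed to 931 and 541 CPM with 6 of 6 genes higher and 1 past the fold. The part of these lists in the Ltc4s and Ltb4r1 ratios was not tested. The Mmp12 Gpnmb state had 2 of 9 past the fold, Ptgs2 and Ltc4s, both lower (8.18% of all genes). In this state the MHC class II-high list summed to 1268 and 2011 CPM, with 5 of 7 genes past the fold lower, and the Car4 Vcan list to 1389 and 2044 CPM. The Arg1 Spp1 list summed to 15315 and 10793 CPM and the Lyve1 Cd163 list to 4676 and 3452 CPM there.

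The Lyve1 Cd163 state had 1 of 9 past the fold (Ltb4r1, beside 6.32%). Its Car4 Vcan list summed to 577 and 388 CPM, with 5 of 6 genes higher and 3 past the fold. In the MHC class II-high state 1 of 9 was past the fold (Hpgds, beside 6.97%), and the Cx3cr1 Vcam1 list, which marks a state high in Hpgds, summed to 7808 and 4987 CPM with 7 of 7 genes higher and 3 past the fold. The part of these lists in the member ratios was not tested. The Nos2 Inhba state had 1 of 10 (Ptges, beside 8.95%). No member passed in the Car4 Vcan (0 of 8, 7.08%), Ly6c2 Plac8 (0 of 8, 8.86%), interferon-response (0 of 9, 9.75%) or cycling (0 of 9, 6.04%) states. Among neutrophil states the interferon-response state had 1 of 3 past the fold (Ptgs2, beside 21.2%), and the Retnlg-high (0 of 3, 14.1%), Cd274 Hcar2 Gadd45b (0 of 3, 14.5%) and Mmp9 Cd177 Il1r2 (0 of 4, 14.5%) states none. Among cells with no state, 1 of 10 members was past the fold in mononuclear phagocytes (Ptges, beside 6.28%) and 1 of 5 in neutrophils (Ltc4s, beside 12.9%).

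The rest of the pathway was read from lists fixed by name. The counts below for mononuclear phagocytes stand beside 6.96% of all measured genes past the fold in that class. Of 10 genes that release or remodel the fatty acid, 9 were measured in mononuclear phagocytes and none was past the fold. Pla2g7, which degrades platelet-activating factor, had 213 and 259 CPM, and Pla2g4a, the cytosolic phospholipase that frees arachidonic acid, 64.9 and 59.4 CPM. Pla2g4a was picked for this role after its value was seen, since Acsl4 and Plaa had more UMIs. In dendritic cells Pla2g7 was 26.4 and 48.4 CPM (0.546, 0.383 to 0.771) and Lpcat2 64.7 and 38.1 CPM (1.70, 1.28 to 2.26). In neutrophils Mgll, a lipase that releases arachidonic acid from an endocannabinoid, was 27.9 and 16.4 CPM (1.70, 1.07 to 2.79).

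Among 8 other prostanoid synthases, 7 were measured in mononuclear phagocytes and 1 was past the fold, beside 6.96% of all genes. Ptges3 had 361 and 358 CPM, Akr1b3 132 and 120 CPM, and Tbxas1, the thromboxane synthase, 83.4 and 84.1 CPM. The gene past the fold was Ptgis, the prostacyclin synthase, at 0.386 and 2.99 CPM on 29 and 217 UMIs, a ratio of 0.129 (0.0844 to 0.191). These UMIs came from few cells, 25 of 6124 and 70 of 6154. In the Nos2 Inhba state 5 and 91 Ptgis UMIs came from 4 and 26 cells, and up to 12 came from 1 cell.

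Ptger3, another prostaglandin E2 receptor, had 163 and 186 CPM in keratin-positive cells, on 234 and 441 UMIs. In mononuclear phagocytes the other prostanoid receptors were scarce, with 3 of 8 measured. Ptgir, the prostacyclin receptor, had 4.41 and 7.80 CPM (0.565, 0.492 to 0.648) and Ptger1 1.06 and 1.78 CPM (0.599, 0.447 to 0.798), both past the fold, and Ptger2, the other cyclic AMP-raising prostaglandin E2 receptor, 5.75 and 5.33 CPM. The synthase and the receptor of prostacyclin were thus both lower in mononuclear phagocytes under the knockdown label, at levels below 10 CPM. None of 4 measured transport and inactivation genes was past the fold, and Ptgr1, the most counted, had 77.5 and 70.3 CPM. Of the 6 listed, Ptgr3 had no row under that symbol. Hpgd, the dehydrogenase that inactivates prostaglandins, was 2.82 and 2.07 CPM in the class (1.37, 1.10 to 1.69), but its states pointed in opposite directions. It was 4.37 and 0.712 CPM in the Lyve1 Cd163 state (6.13, 2.83 to 15.2, on 40 and 8 UMIs) and 5.77 and 9.55 CPM in the Cx3cr1 Vcam1 state (0.604, 0.396 to 0.915). The difference between these states was not tested. In the Arg1 Spp1 state Ptgr1 was 98.8 and 61.8 CPM (1.60, 1.34 to 1.92) and Cbr1, a carbonyl reductase, 15.1 and 8.17 CPM (1.84, 1.13 to 3.08).

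A list of 6 genes held the other lipoxygenases and Cotl1, and 2 of the 6 were measured in mononuclear phagocytes. Alox15, the 12/15-lipoxygenase, was 18.5 and 35.4 CPM (0.523, 0.489 to 0.558) in mononuclear phagocytes and was found in 264 and 418 cells, with up to 82 and 86 UMIs in 1 cell. It was 76.1 and 193 CPM in the Nos2 Inhba state and 40.2 and 73.9 CPM in the MHC class II-high state, where 97 and 145 cells had a UMI. The direction was the reverse in the Car4 Vcan state, at 23.8 and 6.35 CPM from 24 and 11 cells, where 53 of the 122 UMIs under the knockdown label came from 1 cell. Without the UMIs of the highest cell in each library the levels were 13.4 and 4.50 CPM. Cotl1, a 5-lipoxygenase-binding protein, had 749 and 701 CPM.

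No gene was past the fold among the 6 measured leukotriene export, conversion and inactivation genes or the 4 measured leukotriene and lipoxin receptors in mononuclear phagocytes. Cysltr1, a receptor for the Ltc4s branch, had 83.2 and 78.6 CPM, and Fpr2, the lipoxin receptor, 36.3 and 30.3 CPM. In neutrophils Fpr2 had 302 and 336 CPM and Cyp4f18, which inactivates leukotriene B4, 242 and 258 CPM. Dpep2, a leukotriene D4-converting dipeptidase, was 7.55 and 12.8 CPM in dendritic cells (0.588, 0.288 to 1.14), with an interval that holds 1.

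Of 9 genes that prostaglandin E2 and cyclic AMP can induce, all were measured in mononuclear phagocytes and 3 were past the fold, all lower: Nr4a2 at 16.03 and 36.6 CPM (0.438, 0.409 to 0.469), Nr4a3 at 5.03 and 10.7 CPM (0.468, 0.413 to 0.530) and Il10 at 3.94 and 8.08 CPM (0.488, 0.423 to 0.562). All genes stood at 6.96% past the fold in either direction there. The list's median log2 ratio was -0.51, against -0.03 for all genes. Arg1 was the exception in direction, at 840 and 589 CPM, a ratio of 1.43 (1.41 to 1.44), and in neutrophils it was 132 and 81.3 CPM (1.63, 1.33 to 2.01). These genes also respond to other signals, and the stress genes above were mostly lower in the same cells, with 0 of 18 past the fold. The part of either in these ratios was not tested. Of 7 C/EBP-family genes, whose motif is among those searched, 1 was past the fold in mononuclear phagocytes: Cebpb, at 262 and 1041 CPM. It was also lower in neutrophils, at 1111 and 4332 CPM, a pattern already known from these libraries. The Cebpb ratio was 0.252 in mononuclear phagocytes and 0.257 in neutrophils. It was of similar size in dendritic cells (0.240), T cells (0.221) and keratin-positive cells (0.280), and so was not particular to myeloid cells. In dendritic cells Cebpb was 17.3 and 71.9 CPM on 32 and 168 UMIs. That is 6.58% (4.50% to 9.29%) and 6.91% (5.90% to 8.04%) of the mononuclear phagocyte level, near the shares of the macrophage markers there. Cebpa was 16.8 and 11.1 CPM in neutrophils (1.51, 0.851 to 2.81), or 18.6% and 11.2% of the mononuclear phagocyte level, again in or near the range of the macrophage markers. Dnajb1 of the stress list was 90.6 and 158 CPM in dendritic cells (0.575, 0.476 to 0.692).

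In keratin-positive cells Ptgr1 was 112 and 62.9 CPM (1.79, 1.42 to 2.25) and Plaa 78.1 and 51.1 CPM (1.53, 1.17 to 1.99), while Abcc1, a leukotriene C4 exporter, was 9.76 and 19.8 CPM on 14 and 47 UMIs (a ratio of 0.492). Of the cyclic AMP list Nr4a1 (6.97 and 29.96 CPM) and Cxcl1 (69.7 and 141 CPM) were past the fold there, and of the C/EBP list Cebpd (279 and 181 CPM) and Cebpb (155 and 552 CPM). In the same cells 8 of 18 stress genes were past the fold, all lower, beside 11.1% of all genes in either direction, and their part in these ratios was not tested. In T cells Nr4a2 was 266 and 140 CPM (1.90, 1.33 to 2.74) and Cebpb 31.5 and 143 CPM on 9 and 57 UMIs, or 12.0% (5.495% to 22.8%) and 13.7% (10.4% to 17.7%) of the mononuclear phagocyte level. There 3 of 17 measured stress genes were past the fold, beside 16.2% of all genes, Fosb and Socs3 higher and Hspa1b lower.

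**Figure D5:**
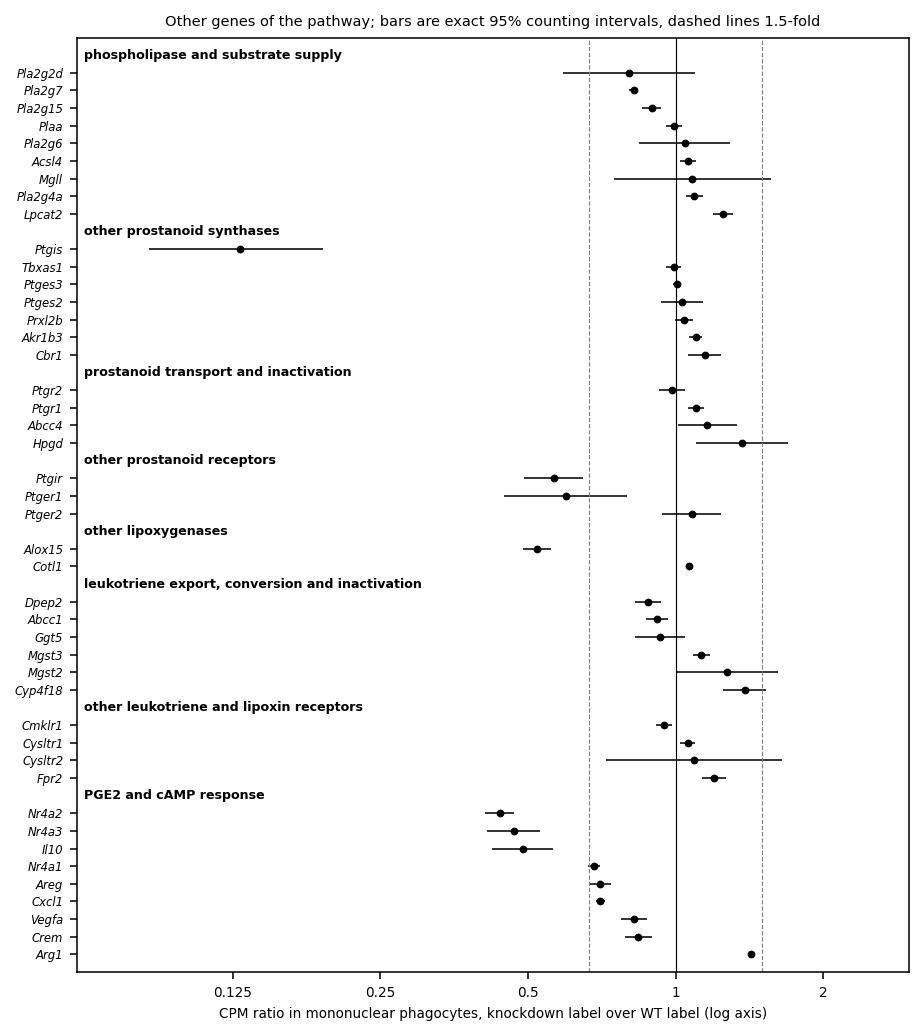
CPM ratio in mononuclear phagocytes, the library labelled SMYD3 knockdown over the library labelled WT (log axis), for the measured genes of 8 pathway lists, with exact 95% counting intervals and dashed lines at 1.5-fold. The points left of the lower line are Ptgis, Ptgir, Ptger1, Alox15, Nr4a2, Nr4a3 and Il10, and no gene lies right of the upper line.

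The genes most like each member were sought among 9356 others, by Pearson's r of log2(CPM + 5) over 34 points, which are 17 classes and states in each of the libraries. The points share libraries and cells, since states lie inside classes, so r is a description. Ptgs2 was most like Clec4e (r = 0.968), Nlrp3 (0.967) and Arg2 (0.965), and Alox5ap most like Csf2ra (0.977), Spi1 (0.974) and Ncf1 (0.971). Spi1 encodes PU.1 and Ncf1 a subunit of the phagocyte oxidase. Of the pairs of members, Alox5 and Alox5ap had the highest r (0.811). Lta4h was nearest to Mfn1 (0.952), Mrps14 (0.944) and Ddx1 (0.934), and Ltb4r1 to Atp8b4 (0.937), Msn (0.916) and Ptpre (0.906).

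For Ptgs1 the nearest genes were Abcc3 (0.925), Itgb5 (0.919) and Nupr1 (0.882), for Hpgds Npl (0.915), Fam167b (0.878) and Rcn3 (0.872), and for Alox5 Lrrc25 (0.901), Fcgr2b (0.898) and Tfe3 (0.890). Ptger4 was nearest to Bmyc (0.904), Otulinl (0.888) and Lrrc8c (0.886). Ltc4s was nearest to Fcna (0.834), Tcn2 (0.813) and Vsig4 (0.781), genes typical of resident macrophages. Ptges had the weakest match, Rusc2 (0.760), on 250 UMIs in all, followed by Pgm1 (0.743) and Mgarp (0.714).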

How the data were processed

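Single-cell RNA libraries of 2 tumour groups, 1 library each, were analysed from the UMI counts that the authors deposited as 1 sparse matrix. The counts were made with Cell Ranger 7.1.0 on mm10, per the submitters' processing notes. No source used here states whether the counting used strand, so reads of the 6 members that overlap another gene cannot be told apart from it. Cells were assigned to libraries by the authors' deposited barcode table.

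Barcodes with at least 500 UMIs, 200 genes and at most 20% mitochondrial UMIs were kept. The doublet caller of scanpy 1.11.5 marked 0 cells by its own threshold, so the cells ranked highest by score were taken out, 0.8% for each 1000 cells (723 and 603 cells). Classes came from marker scores (the mean of the 5 highest scaled markers, a floor of 0.3 and a margin of 0.1), states from z scores (floor 0.5, margin 0.25), and barcodes with at least 5% acinar-marker UMIs were set apart (91 and 0 cells). A class is a range of a score and not a type: 324 of 12278 mononuclear phagocytes, 234 of 3073 neutrophils and 344 of 1976 neutrophils with a state lay near a cut, 295 and 303 cells were unassigned, and 1477 and 1459 mononuclear phagocytes had no state. The scoring rule was set after member levels had been seen: a first version had no floor or margin and let the acinar class compete, and it was replaced because that class took in many cells of the library labelled SMYD3 knockdown. Clusters for the alternative were named by their majority gate for classes, and by the highest mean z score of the state markers for states.

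UMIs were summed per class and library. CPM has exact Poisson intervals, shares have exact Clopper-Pearson intervals and ratios exact conditional binomial intervals (scipy 1.17.1). A count of 0 was given a limit of 3 counts. The fold rule was tested on simulated data. All 10 members are named, with the pathway-list genes past the fold in a class (stress genes by count in keratin-positive cells) and up to 3 of the most counted per list; genes named for a single state were chosen after their values were seen. For likeness, genes of at least 20 CPM in a unit of at least 50 cells were searched, without markers and members. Members and lists were chosen with earlier results of these data known. The gene pairs and the states given a sensitivity check were chosen after their values were seen. Of 10 members, 10 matched GENCODE vM21 and 9 RefSeq promoters (none for Alox5ap).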

Additional observations from a re-analysis of the deposited data

Results flagged for a closer look

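Ltc4s had library ratios on opposite sides of 1 in different macrophage states, with exact counting intervals that did not overlap. The CPM ratio of the library labelled SMYD3 knockdown over the library labelled WT was 1.62 (1.38 to 1.90) in the Arg1 Spp1 state, 0.614 (0.540 to 0.699) in the Cx3cr1 Vcam1 state and 0.647 (0.475 to 0.874) in the Mmp12 Gpnmb state. With 1 library per label the difference between states was not tested.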

How the results depend on the processing

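No paired analysis was possible because each label had 1 library. For the same reason no replicate could be left out. Of 306 alternative values of library ratios over 32 results, 267 stayed within the counting interval, 37 moved further and 2 reversed, counting as reversed a ratio past the fold that went to the other side of 1. The reversals were Ptgs2 in dendritic cells, 0.863 with Leiden clusters (11 and 17 UMIs), and Hpgds in the Arg1 Spp1 state, 0.732 with every cell thinned (3 and 4 UMIs). Another 24 alternatives crossed 1 in 14 results that were not past the fold, so their direction is not settled. Of these, Lta4h in dendritic cells went from 0.790 to 1.85 (3 and 2 UMIs, thinned), Alox5 in dendritic cells from 1.22 to 0.617 (2 and 4 UMIs, thinned), Hpgds in mononuclear phagocytes from 1.07 to 0.959 and Ptgs2 in the Cx3cr1 Vcam1 state from 1.12 to 0.909 (both with each cell weighing the same). Ltc4s in neutrophils kept its side of 1 in 5 of 10. Counts of members past the fold went from 0 to 1 in mononuclear phagocytes with each cell weighing the same (Ptges), from 1 to 0 in neutrophils with a stricter gate, and from 2 in dendritic cells to 1 without doublet removal and to 0 with a stricter gate, thinned cells or Leiden clusters, where members were no longer past the fold or had fewer than 30 UMIs. The number of members with the same highest class or state in both libraries went from 6 to 10 with each cell weighing the same. In the Arg1 Spp1 state the alternatives ranged from 1.36 to 1.94 for Ptgs1 (past the fold in 8 of 9), from 0.547 to 0.696 for Ptgs2 (8 of 9), from 0.732 to 3.22 for Hpgds (7 of 9) and from 1.26 to 2.36 for Ltc4s (6 of 9). Ltc4s in the Cx3cr1 Vcam1 state ranged from 0.549 to 0.671 (8 of 9), and Lta4h in neutrophils from 1.19 to 2.23. Ptgs2 in neutrophils over mononuclear phagocytes ranged from 5.82 to 8.33 and from 6.09 to 8.77. Leiden clusters gave no Nos2 Inhba or Mmp12 Gpnmb state, so those values could not be recomputed that way. Their Arg1 Spp1 state (805 and 899 cells) and Cx3cr1 Vcam1 state (1251 and 948 cells) were larger than the gated states. At these depths members with few UMIs (Ptges everywhere, Lta4h and Ptger4 in neutrophils) allow no statement on differences below about the width of their intervals.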
